A study of Mus musculus with 40 samples.

Results

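A set of 10 genes of superoxide and peroxide handling was followed through 10 groups of mouse cardiac fibroblasts: the oxidase genes *Nox4* and *Cyba*, the superoxide dismutases *Sod1*, *Sod2* and *Sod3*, the catalase gene *Cat*, and the antioxidant response genes *Hmox1*, *Nqo1*, *Gclm* and *Txnrd1*. They were chosen by name as a pathway around *Sod2*, and each matched 1 of the 55414 gene identifiers in the count table. All 10 were among the 25210 genes with at least 10 counts in total, which were tested. The study asked which responses of cardiac fibroblasts pass through TAK1, a kinase that relays signals from the IL-1 and TNF receptors to NF-κB, p38 and JNK. Poly(A) RNA was sequenced from fibroblasts of C57BL/6J TAK1fl/fl hearts at their first passage, which were grown in medium with serum and bFGF and then serum-starved. Every group carried an adenovirus, with LacZ as control or with iCre, a Cre recombinase under a CMV promoter that removes exon 2 of both TAK1 alleles in the cells it reaches. For 24 h the cells received no ligand (CTRL), bFGF at 20 ng/ml, TGFβ at 10 ng/ml, IL-1β at 15 ng/ml or TNFα at 10 ng/ml, with 4 replicates in each combination of virus and ligand. The study describes the replicates as biological replicates from male mice. The labels do not tie a replicate number to an animal, so p-values measure the spread between these cultures. The age of the animals was not given beyond adult, and LacZ cells are the only control for the virus.

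Superoxide is made by NADPH oxidases, in which a NOX catalytic subunit sits with p22phox, the *Cyba* product. Superoxide dismutases turn it into hydrogen peroxide in the cytosol (SOD1), the mitochondrial matrix (SOD2) and outside the cell (SOD3), and catalase and peroxidases then remove the peroxide. *Sod2* is a classical NF-κB target, *Nox4* is the NOX form long known as a TGFβ-responsive gene in fibroblasts, and *Hmox1*, *Nqo1*, *Gclm* and *Txnrd1* are classical targets of the transcription factor NRF2 (*Nfe2l2*), which is held back by KEAP1.

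Total counts on genes ran from 25360947 to 66160732 in the 40 libraries (median 36183962). Levels are given as CPM, counts scaled to a common library size with TMM factors, with the SD over 4 libraries. All 10 fibroblast markers were measured, and summed to between 15351 and 69714 CPM per library. Between LacZ and iCre cells the median sum went from 47996 to 25139 CPM with IL-1β and from 31631 to 17030 CPM with TNFα, with no overlap of libraries, while in CTRL (40770 to 26097 CPM), bFGF (25682 to 20154 CPM) and TGFβ (58852 to 57178 CPM) the libraries overlapped. The collagens made up most of the sum and the markers did not move together: with TNFα the means of *Col3a1* were 11835 and 3402 CPM, those of *Vim* 2825 and 4787 CPM, of *Thy1* 368 and 743 CPM, and of *Ddr2* 544 and 547 CPM. The 6 macrophage and leukocyte markers summed to between 16.4 and 159 CPM and the 3 endothelial markers to between 0.746 and 13.4 CPM. Of 4 cardiomyocyte markers 3 were tested, since *Myh6* had 3 counts in all libraries together. *Tnnt2*, cardiac troponin T, made up most of their sum, with a mean of 49.1 CPM in LacZ CTRL (14.6 to 110 CPM), and 1.01 and 3.56 CPM when LacZ cells had IL-1β or TNFα. The iCre means in these 3 media were 27.8, 8.63 and 6.96 CPM. The 4 pericyte and smooth muscle markers, whose sum was mostly *Rgs5*, had median sums in LacZ and iCre cells of 376 and 816 CPM in CTRL, 399 and 836 CPM with bFGF, 947 and 1314 CPM with TGFβ, 678 and 826 CPM with IL-1β, and 197 and 876 CPM with TNFα, and the libraries of the viruses overlapped in every medium. *Kcnj8* (4.11 and 3.06 CPM) and *Myh11* (2.23 and 1.26 CPM) had lower means in iCre than in LacZ cells in CTRL. Their levels in the other media, and those of *Cspg4*, are not described here, so these values do not give the direction of the list. The part of these marker differences in the results was not tested. In their dependence on GC content, 12 libraries (iCre cells given TGFβ, IL-1β or TNFα) stood apart from the other 28: log2 CPM rose with GC by 0.21 to 0.34 per 10% in them and changed by −0.24 to −0.01 per 10% in the others. For the 10 genes, each iCre result is therefore given with a correction for GC content where that ended or reversed a call. The correction is also given where it moved a called value by more than 1.5 times. Results of other genes and of the gene lists are as counted, except where a correction is named.

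*Map3k7*, the gene for TAK1, stood at 155, 144, 154 and 159 CPM in the LacZ libraries and 128, 123, 126 and 133 CPM in the iCre libraries in CTRL. The groups did not overlap, but the log2 fold change of −0.28 (SE 0.07) was not called (adjusted p = 0.137, edgeR's quasi-likelihood test), and was called with the replicate number as a block (adjusted p = 0.00393). With IL-1β the log2 fold change was −0.82 (SE 0.09, adjusted p = 0.000274 by edgeR) and with TNFα −0.71 (SE 0.10, adjusted p = 0.000829 by edgeR). Counts include every exon of the gene, so that transcripts of the recombined allele are counted too.

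The ligands set the levels of the 10 genes in different ways. In LacZ cells IL-1β raised *Sod2* 18.3-fold and with it *Nqo1*, *Gclm*, *Hmox1* and *Txnrd1*, TNFα raised *Sod2* 9.44-fold with *Cyba*, *Txnrd1* and *Gclm*, and TGFβ raised *Nox4* 7.06-fold with *Txnrd1*, *Sod2* and *Gclm* while *Cat* and *Sod1* fell. In iCre cells *Sod2* reached 4.81-fold its CTRL level with IL-1β and 2.84-fold with TNFα. With TNFα, *Nqo1* and *Hmox1* were 4.61-fold and 3.97-fold higher in iCre than in LacZ cells. Part of this was present without TNFα: in CTRL the iCre and LacZ means were 29.3 and 18.4 CPM for *Nqo1* and 211 and 129 CPM for *Hmox1*. In CTRL, bFGF and TGFβ all 4 pairs of the same replicate number were higher in iCre cells for both genes. The libraries overlapped there, and edgeR called neither gene. In extracts of a whole culture, fewer cells that express a gene and less RNA of it per cell cannot be told apart.

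**Figure D1:**
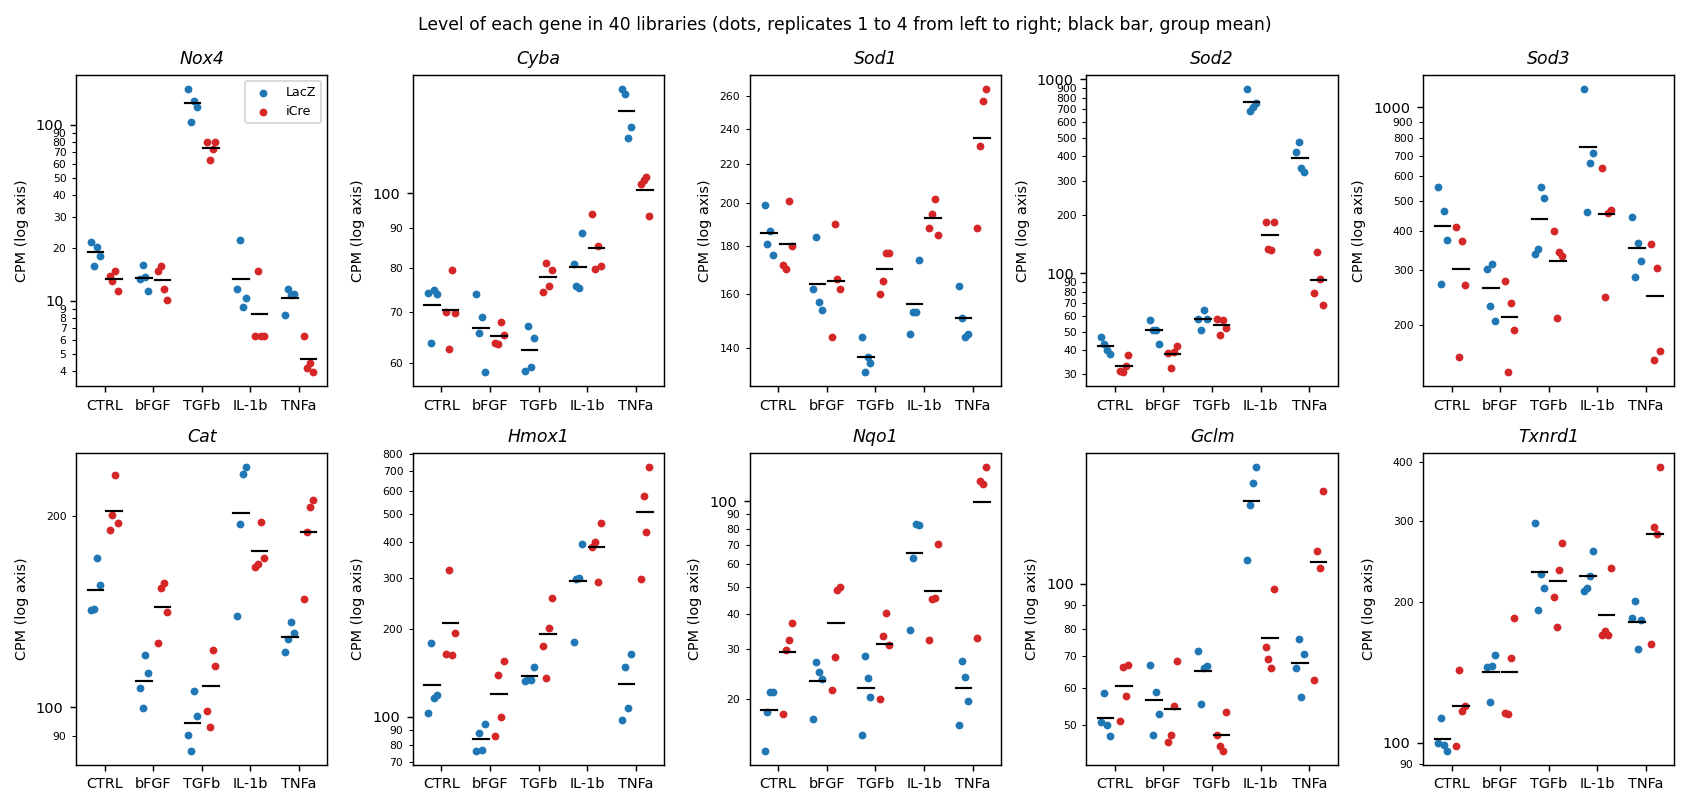
Level of each of the 10 genes in CPM (log axis) in the 5 media, with 1 dot per library (LacZ in blue, iCre in red, replicates 1 to 4 from left to right) and a black bar at the mean of 4. *Sod2* with IL-1β lay between 684 and 895 CPM in LacZ cells and between 132 and 184 CPM in iCre cells, and *Nox4* with TGFβ between 103 and 160 CPM in LacZ cells and between 62.9 and 79.8 CPM in iCre cells.

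Counts of calls were read beside the share of all genes called in the same comparison (adjusted p of at most 0.05, edgeR). Against CTRL in LacZ cells, 3 of the 10 genes were called with bFGF (1 higher, 2 lower) beside 11.6% of all genes, 6 with TGFβ (4 higher, 2 lower) beside 36.9%, 5 with IL-1β (all higher) beside 20.7% (11.1% higher), and 6 with TNFα (4 higher, 2 lower) beside 21.3%. In iCre cells the counts were 1 with bFGF (lower) beside 2.42% (0.635% lower), 5 with TGFβ (3 higher, 2 lower) beside 37.4%, 3 with IL-1β (all higher) beside 16.3% (9.38% higher), and 8 with TNFα (7 higher, 1 lower) beside 27%. The 4 comparisons of a virus share the same CTRL libraries. The share is over all genes tested, many of them with few counts. With edgeR's stricter expression filter it was 22.6% (bFGF), 59.2% (TGFβ), 37.5% (IL-1β) and 39% (TNFα) in LacZ cells. There 4, 6, 6 and 7 of the 10 genes were called. In iCre cells it was 5.28%, 63.1%, 29.9% and 47.7% in the same order, beside 1, 5, 3 and 8 of the 10. The median log2 fold change of the 10 genes in LacZ cells was 1.01 with IL-1β, 0.13 with TNFα, 0.19 with TGFβ and −0.12 with bFGF, beside −0.10, −0.08, −0.17 and −0.03 over all genes tested.

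Replicate numbers recurred across groups with shared deviations, and a block for the number raised several counts by more than 1.5 times. With the block, 7 of the 10 genes were called with bFGF (beside 27.3% of all genes) and 9 with IL-1β (beside 33.5%) in LacZ cells, and 4 with bFGF (beside 16.7%) and 9 with IL-1β (beside 33.8%) in iCre cells. The genes added with IL-1β in LacZ cells were *Sod3*, *Cat*, *Nox4* and *Sod1*, of which the first pair had positive and the second pair negative log2 fold changes.

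**Figure D2:**
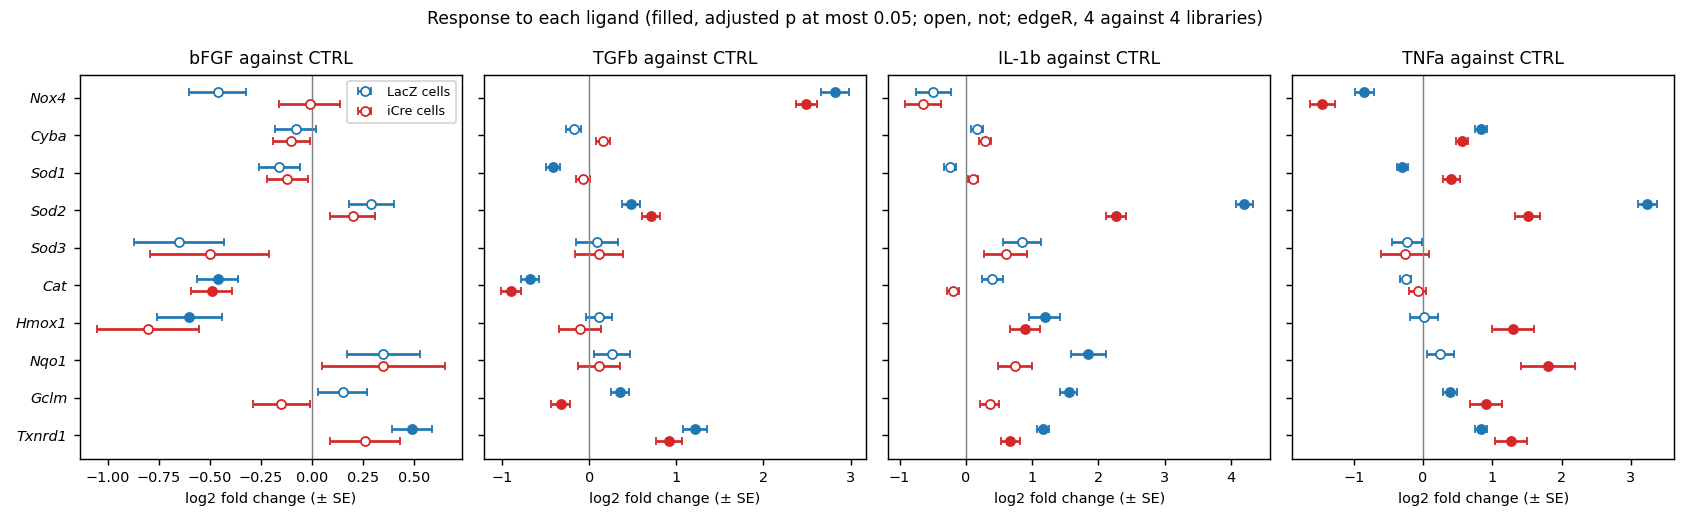
Log2 fold change of each gene against CTRL (x axis, with SE) for 4 ligands, in LacZ cells (blue) and iCre cells (red), with filled symbols for adjusted p of at most 0.05 in edgeR's test of 4 against 4 libraries. *Sod2* stands at 4.20 with IL-1β in LacZ and 2.26 in iCre cells, and *Nox4* at 2.82 and 2.49 with TGFβ.

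*Nox4* (ENSMUSG00000030562, chromosome 7, 87246096 to 87398710 on GRCm38), which encodes an oxidase that releases hydrogen peroxide without a separate stimulus, rose with TGFβ alone among the ligands. In LacZ cells it was at 21.6, 15.7, 20.2 and 18 CPM in CTRL and at 160, 103, 137 and 126 CPM with TGFβ. The groups lay far apart, with a log2 fold change of 2.82 (SE 0.16, adjusted p = 1.75e-06 by edgeR). In iCre cells it went from 13.3 ± 1.46 CPM (SD, n = 4) to 73.7 ± 7.89 CPM, a log2 fold change of 2.49 (SE 0.12, adjusted p = 5.05e-07 by edgeR). The difference between the 2 responses, −0.35 (SE 0.20), was not called (adjusted p = 0.442 by edgeR, interaction over 16 libraries). With the GC correction its sign turned, to 0.31 (adjusted p = 0.621), and the iCre response was 3.19.

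With TNFα *Nox4* fell instead. It was at 8.27, 11.7, 10.8 and 10.9 CPM in LacZ cells, all below CTRL (log2 fold change −0.85, SE 0.14, adjusted p = 0.00223 by edgeR), and at 6.28, 4.12, 4.42 and 3.92 CPM in iCre cells, all below the iCre CTRL libraries (−1.46, SE 0.18, adjusted p = 0.000407 by edgeR). The latter was −0.75 after the GC correction and still called. With IL-1β replicate 2 was the high library under both viruses, at 22.2 CPM in LacZ cells where the others held 9.25 to 11.6 CPM, and at 14.7 CPM in iCre cells where the others held 6.26 to 6.32 CPM. The log2 fold changes of −0.49 and −0.64 were not called (adjusted p = 0.215 and 0.146 by edgeR). Without replicate 2 of the IL-1β group they were −0.85 and −1.05, and both were called (adjusted p = 0.00326 and 0.000892 by edgeR). Both were also called with the replicate block, but in iCre cells the blocked value with the GC correction was not (adjusted p = 0.868 by edgeR).

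Between the viruses, *Nox4* was lower in iCre cells with TGFβ (−0.87, SE 0.13, adjusted p = 0.00322 by edgeR) and with TNFα (−1.13, SE 0.19, adjusted p = 0.00198 by edgeR), with no overlap between the 4 libraries of each virus. *Nox4* has the lowest GC content of the 10 genes, 37.9% in its longest transcript. After the GC correction the values were −0.14 and −0.39 and neither was called. In CTRL, where the GC slopes of the viruses were closer (−0.122 to −0.102 in LacZ and −0.088 to −0.007 in iCre libraries), the GC correction gave −0.47 and the log2 fold change as counted was −0.52 (SE 0.13, adjusted p = 0.119 by edgeR, and 0.000898 with the replicate block).

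*Cyba* (ENSMUSG00000006519, chromosome 8, 122424776 to 122432930) rose with TNFα under both viruses. In LacZ cells it was at 74.1, 63.8, 74.7 and 73.8 CPM in CTRL and 137, 135, 118 and 122 CPM with TNFα. These did not overlap, and the log2 fold change was 0.84 (SE 0.09, adjusted p = 0.000169 by edgeR). In iCre cells the log2 fold change with TNFα was 0.56 (SE 0.09, adjusted p = 0.00147 by edgeR). With IL-1β it was 0.17 in LacZ and 0.29 in iCre cells, and neither was called (adjusted p = 0.228 and 0.0683 by edgeR), although all 4 pairs were higher under both viruses. With the replicate block the iCre value was called (adjusted p = 0.000454) and the LacZ value was not (0.0853), and with the block and GC correction together the LacZ value was called (0.0436) and the iCre value was not (0.416).

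With TNFα *Cyba* was lower in iCre than in LacZ cells, with 103, 104, 105 and 93.3 CPM all below the LacZ libraries (−0.32, SE 0.08, adjusted p = 0.0184 by edgeR). After the GC correction the difference was −0.59 and still called. Without iCre TNFα replicate 4 its adjusted p was 0.0509. With TGFβ the log2 fold change between viruses was 0.28 (adjusted p = 0.0471 by edgeR), but it was −0.02 after the GC correction and lost its call when any 1 of 7 of the 8 libraries, all but LacZ TGFβ replicate 2, was left out (adjusted p up to 0.152).

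Of 14 further oxidase subunits and partners, 13 were tested (*Duoxa2* had 5 counts). In LacZ cells 2 rose with IL-1β (beside 20.7% of all genes called), 2 rose with TNFα (beside 21.3%), and 1 rose and 3 fell with TGFβ (beside 36.9%). The median log2 fold changes were 0.19, 0.29 and −0.60, beside −0.10, −0.08 and −0.17 over all genes. *Nox1*, *Nox3*, *Duox1*, *Duox2*, *Duoxa1*, *Noxa1* and *Ncf4* had only 64 to 385 counts each over all libraries. These medians therefore rest in large part on genes near the floor and do not describe the expressed oxidase genes. *Cybb*, the catalytic subunit of phagocytes, went from 2.59 CPM in CTRL to 9 CPM with IL-1β (log2 fold change 1.81, SE 0.31, adjusted p = 0.00273 by edgeR) and to 16.7 CPM with TNFα (2.69, SE 0.35, adjusted p = 0.000625 by edgeR). It was lower in iCre cells with both cytokines, by −2.44 and −2.32 on the log2 scale (adjusted p = 0.00453 and 0.00506 by edgeR). For the 6 leukocyte markers the median sum in LacZ cells was 86.6 CPM in CTRL, and the values with IL-1β and TNFα were 88.8 and 74.9 CPM. The 3 medians in iCre cells were 52.8, 64 and 72.3 CPM. Most of each sum was *Lyz2*, and single markers differed: *Csf1r* had means of 6.18, 11.2 and 8.55 CPM in LacZ cells in CTRL, IL-1β and TNFα and 3.64, 7.57 and 5.85 CPM in iCre cells. For *Itgam* the LacZ means were 0.574, 1.59 and 1.21 CPM and the iCre means 0.412, 0.486 and 0.57 CPM. The part of such cells in the *Cybb* result was not tested. *Noxo1*, an organizer subunit of NOX1, fell with TGFβ in LacZ cells (−2.07, SE 0.27, adjusted p = 0.000175 by edgeR), and *Rac1*, a GTPase that activates several oxidases, rose (0.42, SE 0.09, adjusted p = 0.00478 by edgeR).

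*Sod2* (ENSMUSG00000006818, chromosome 17, 13006846 to 13040063) had the widest range after *Nox4*. RefSeq promoter windows (GRCm38.p6, 250 bases before to 50 after the start site) were at hand for 8 of the 10 genes, and the one of *Sod2*, chr17:13007589-13007888 on the plus strand, is shown because this gene answered most strongly to the cytokines. Capitals mark the 4 GC boxes (GGGCGG on either strand), which start 124, 109, 91 and 67 bases before the start site.
Sod2: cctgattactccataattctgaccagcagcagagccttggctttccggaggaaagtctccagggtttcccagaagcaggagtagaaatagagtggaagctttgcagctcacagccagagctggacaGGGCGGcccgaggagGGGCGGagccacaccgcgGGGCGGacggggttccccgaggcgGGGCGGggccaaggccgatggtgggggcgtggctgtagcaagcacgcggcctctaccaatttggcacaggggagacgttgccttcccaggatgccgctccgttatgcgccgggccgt
GGGCGG was in 35.7% of 32851 such windows in the genome and in all 8 of the genes at hand. TGANTCA, the AP-1 letters, was in 7.81% of all windows and in none of the 8. The κB consensus, which was searched once the window had been read, was in 8.46% of all windows and in those of *Sod2* and *Cat*, while a narrower κB pattern was in 4.79% of all windows and in none of the 8. In *Sod2* it starts 83 bases before the start site, between 2 of the GC boxes and without overlap. Nothing outside these windows was searched.

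In LacZ cells *Sod2* was at 46.8, 42.9, 39.9 and 38.1 CPM in CTRL, at 895, 684, 717 and 754 CPM with IL-1β, and at 423, 476, 349 and 334 CPM with TNFα. The 3 groups did not overlap. The log2 fold change was 4.20 (SE 0.13) with IL-1β and 3.24 (SE 0.14) with TNFα, and IL-1β gave the higher level (0.95, SE 0.14, adjusted p = 0.00174 by edgeR, with no CTRL library in the comparison). Per kilobase of exon, *Sod2* was the second lowest of the 10 genes in CTRL, at 4.19 CPM per kb where *Sod3* was at 111, *Hmox1* at 73.9 and *Sod1* at 46.8. With IL-1β it reached 76.2 CPM per kb, above *Sod1* at 39.4.

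In iCre cells *Sod2* was at 31.3, 30.8, 33.2 and 37.9 CPM in CTRL, at 184, 133, 132 and 183 CPM with IL-1β, and at 79, 128, 93.6 and 68.8 CPM with TNFα. Each cytokine group was still above every CTRL library, and each was below every LacZ library with the same cytokine. The response was smaller in iCre than in LacZ cells by 1.94 log2 units with IL-1β (interaction −1.94, SE 0.18, adjusted p = 1.36e-05 by edgeR) and by 1.74 with TNFα (interaction −1.74, SE 0.23, adjusted p = 0.000139 by edgeR). Both interactions were called without any 1 library, and the differences between viruses of −2.29 and −2.08 were −1.96 and −1.74 after the GC correction and still called. Ordered by mean, LacZ IL-1β, LacZ TNFα, iCre IL-1β, iCre TNFα and LacZ TGFβ did not overlap with one another. Below them came iCre TGFβ, LacZ bFGF, LacZ CTRL, iCre bFGF and iCre CTRL, and from LacZ TGFβ downwards each group overlapped with the next.

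TGFβ raised *Sod2* much less, to 58 ± 5.59 CPM (SD, n = 4) in LacZ cells (log2 fold change 0.48, SE 0.10, adjusted p = 0.00317 by edgeR) and to 53.7 ± 4.81 CPM in iCre cells (0.71, SE 0.10, adjusted p = 0.000317 by edgeR). With bFGF the log2 fold changes were 0.29 and 0.20 and were not called (adjusted p = 0.117 and 0.409 by edgeR), and the first was called with the replicate block (adjusted p = 0.00851). Without cytokine, *Sod2* was lower in all 4 iCre than in all 4 LacZ libraries in CTRL (−0.34, adjusted p = 0.166 by edgeR, and 0.0104 with the block) and with bFGF (−0.41, adjusted p = 0.343 by edgeR, and 0.00306 with the block).

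Over the 10 group means of log2 CPM, the genes with a pattern most like that of *Sod2* were *Saa3* (Pearson's r = 0.986), *Dram1* (0.984), *Nod1* (0.978), *Hp* (0.973) and *Ifnar1* (0.963), out of 13073 genes. Among the other 9 genes *Gclm* was the most like it (0.758) and *Nox4* the least (−0.303). The 10 means share their normalization, and the iCre means of 3 ligands share the GC difference, so these values describe likeness only. Over the 40 libraries *Saa3* and *Dram1* were again first, followed by *Slc11a2*, *Nos2* and *Camp*.

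*Sod1* (ENSMUSG00000022982, chromosome 16, 90220754 to 90226329), the cytosolic dismutase, had log2 fold changes of at most 0.42 in size against CTRL. In LacZ cells it was at 199, 181, 187 and 176 CPM in CTRL and at 144, 132, 137 and 135 CPM with TGFβ, all lower (log2 fold change −0.42, SE 0.08, adjusted p = 0.00199 by edgeR). With TNFα it was at 163, 151, 144 and 145 CPM in LacZ cells, below every CTRL library (−0.30, SE 0.08, adjusted p = 0.0184 by edgeR), but at 188, 230, 257 and 265 CPM in iCre cells, where the log2 fold change was 0.41 (SE 0.12, adjusted p = 0.0274 by edgeR). The TNFα responses differed between the viruses by 0.70 (SE 0.14, adjusted p = 0.00275 by edgeR, interaction), and this was called without any 1 library. The fall with TNFα in LacZ cells was lost without LacZ CTRL replicate 3 or LacZ TNFα replicate 3 or 4 (adjusted p up to 0.0629), and the rise in iCre cells without iCre CTRL replicate 1, 2 or 4 or iCre TNFα replicate 3 or 4 (adjusted p up to 0.0844).

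With TNFα *Sod1* was higher in iCre than in LacZ cells (0.66, SE 0.11, adjusted p = 0.00217 by edgeR). With TGFβ and IL-1β the differences were 0.28 and 0.29 (adjusted p = 0.0371 and 0.0413 by edgeR). Each of these lost its call when any 1 of 7 of the 8 libraries was left out (adjusted p up to 0.126 and 0.124), the exceptions being iCre TGFβ replicate 2 and LacZ IL-1β replicate 4. The GC correction left them at 0.29 and 0.28, not called without the block (adjusted p = 0.0812 and 0.066) and called with it (0.0138 and 0.0108). A gene on the opposite strand, *Scaf4*, lies across *Sod1* with no shared exon.

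*Sod3* (ENSMUSG00000072941, chromosome 5, 52363791 to 52371418), which encodes the secreted dismutase, had the highest level per kilobase of exon in LacZ CTRL. Replicate 2 was the lowest library in 8 of 10 groups. In LacZ cells it was at 555, 270, 465 and 375 CPM in CTRL and at 1148, 461, 662 and 713 CPM with IL-1β. All 4 pairs of the same number rose, although the groups overlapped, and the log2 fold change of 0.85 (SE 0.29) was not called (adjusted p = 0.064 by edgeR). It was called with the block and by DESeq2 (adjusted p = 0.0195), and without LacZ CTRL replicate 1 or LacZ IL-1β replicate 2 (adjusted p = 0.0498 and 0.0237 by edgeR). Without LacZ IL-1β replicate 1 it was 0.55 (adjusted p = 0.168 by edgeR). IL-1β gave higher levels than TNFα in LacZ cells (1.08, SE 0.25, adjusted p = 0.0218 by edgeR), a call lost without LacZ TNFα replicate 3 or 4 (adjusted p up to 0.0675). Between the viruses *Sod3* was lower in iCre cells in all 4 pairs in CTRL, bFGF, IL-1β and TNFα, with log2 fold changes of −0.47, −0.31, −0.74 and −0.50 that were not called by edgeR without the block and were with it (adjusted p = 0.000104, 0.0123, 2.03e-06 and 0.0111).

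*Cat* (ENSMUSG00000027187, chromosome 2, 103453849 to 103485160), the peroxisomal catalase, fell with both growth factors. In LacZ cells it was at 142, 143, 172 and 156 CPM in CTRL, at 107, 99.6, 121 and 113 CPM with bFGF, and at 90.3, 85.4, 106 and 96.8 CPM with TGFβ. Neither ligand group overlapped with CTRL. The log2 fold change was −0.46 with bFGF (SE 0.10, adjusted p = 0.0178 by edgeR) and −0.68 with TGFβ (SE 0.10, adjusted p = 0.000427 by edgeR). In iCre cells it was −0.49 (adjusted p = 0.0362 by edgeR) and −0.90 (adjusted p = 8.96e-05 by edgeR). The call with bFGF was lost in LacZ cells without LacZ CTRL replicate 3 or 4 (adjusted p up to 0.061), and in iCre cells without any 1 of iCre CTRL replicates 1, 3 and 4 and iCre bFGF replicates 1, 3 and 4 (adjusted p up to 0.124).

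With IL-1β *Cat* was at 139, 194, 233 and 239 CPM in LacZ cells, where replicate 1 stayed at its CTRL level and the other 3 were above it (0.40, SE 0.16, adjusted p = 0.105 by edgeR, and 0.000717 with the block). Without that library it was 0.53 and called (adjusted p = 0.012 by edgeR). With TNFα *Cat* was higher in iCre cells, at 148, 189, 207 and 212 CPM, than in LacZ cells, at 122, 128, 136 and 131 CPM (0.57, SE 0.11, adjusted p = 0.00443 by edgeR). In CTRL all 4 iCre libraries were also above all 4 LacZ libraries (0.40, SE 0.09, adjusted p = 0.114 by edgeR, and 0.000248 with the block). Within LacZ cells, all 4 TNFα libraries lay below every CTRL library too, a fall that edgeR did not call.

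Of 21 other genes of superoxide and peroxide removal, 8 rose and 1 fell with IL-1β in LacZ cells (beside 20.7% of all genes called), with a median log2 fold change of 0.12, and 2 rose and 3 fell with TNFα (beside 21.3%), with a median of 0.03. Over all genes the medians were −0.10 and −0.08. In iCre cells 12 rose and 1 fell with TNFα (beside 27% of all genes) and the median was 0.50, beside −0.04 over all genes. *Srxn1*, which restores oxidized peroxiredoxins, rose with IL-1β in LacZ cells from 86.2 to 325 CPM (1.93, SE 0.24, adjusted p = 0.000429 by edgeR), and *Prdx6*, a peroxiredoxin, from 70.6 to 225 CPM (1.69, SE 0.26, adjusted p = 0.00147 by edgeR). *Txnip*, which encodes an inhibitor of thioredoxin, fell from 479 to 133 CPM (−1.84, SE 0.18, adjusted p = 0.000109 by edgeR). It also fell with TGFβ (−1.55) and TNFα (−1.28), and in iCre cells with TGFβ (−2.01), IL-1β (−0.97) and TNFα (−1.51).

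In the virus comparison with TNFα, 8 of these 21 genes were higher in iCre cells and none was lower (beside 27.3% of all genes called), with a median of 0.35 beside 0.00 over all genes. *Prdx1*, a peroxiredoxin, had 977 CPM in iCre against 466 CPM in LacZ cells (1.09, SE 0.17, adjusted p = 0.00158 by edgeR), and *Srxn1* had 231 against 106 CPM (1.14, SE 0.22, adjusted p = 0.00434 by edgeR). With IL-1β 4 were higher and 4 were lower (beside 16.1% of all genes). The higher ones included *Txnip*, with 323 CPM in iCre against 133 CPM in LacZ cells (1.27, SE 0.18, adjusted p = 0.00126 by edgeR). The lower ones included *Gsr*, glutathione reductase (−1.08, SE 0.13, adjusted p = 0.000526 by edgeR), and *Srxn1* (−0.80, SE 0.20, adjusted p = 0.0223 by edgeR).

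The 4 NRF2 target genes *Hmox1*, *Nqo1*, *Gclm* and *Txnrd1* split between the cytokines. In LacZ cells all 4 rose with IL-1β, whereas with TNFα *Gclm* and *Txnrd1* rose. In iCre cells all 4 rose with TNFα, and *Hmox1* and *Txnrd1* with IL-1β. These are calls without the replicate block. With it, *Nqo1* and *Gclm* were called as higher with IL-1β in iCre cells too. IL-1β against TNFα in iCre cells was called for none of the 4 by edgeR without the block, so the split is shown for LacZ cells only. The core of the antioxidant response element, TGACNNNGC on either strand, was in 12.4% of the 32851 promoter windows, and in those of *Gclm*, *Txnrd1* and *Sod1* but not in that of *Nqo1*. The windows of the first 2 are shown because these genes rose with both cytokines in LacZ cells, and that of *Sod1* because it has the same letters and fell with TNFα there. They are chr3:122245307-122245606, chr10:82858956-82859255 and chr16:90220512-90220811, all on the plus strand. *Txnrd1* has other windows too, without these letters. Capitals mark the match, which starts 134, 92 and 56 bases before the start site.
Gclm: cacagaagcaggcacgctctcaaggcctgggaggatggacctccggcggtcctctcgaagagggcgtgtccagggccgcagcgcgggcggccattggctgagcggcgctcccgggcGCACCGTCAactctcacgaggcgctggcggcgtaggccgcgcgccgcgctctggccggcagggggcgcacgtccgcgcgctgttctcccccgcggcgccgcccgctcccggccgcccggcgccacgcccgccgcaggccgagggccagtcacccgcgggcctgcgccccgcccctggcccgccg
Txnrd1: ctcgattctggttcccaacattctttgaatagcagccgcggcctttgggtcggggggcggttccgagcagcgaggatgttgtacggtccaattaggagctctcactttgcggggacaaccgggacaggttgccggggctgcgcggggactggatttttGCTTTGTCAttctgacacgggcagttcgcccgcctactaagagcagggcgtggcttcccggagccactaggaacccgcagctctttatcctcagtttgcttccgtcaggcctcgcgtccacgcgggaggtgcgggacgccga
Sod1: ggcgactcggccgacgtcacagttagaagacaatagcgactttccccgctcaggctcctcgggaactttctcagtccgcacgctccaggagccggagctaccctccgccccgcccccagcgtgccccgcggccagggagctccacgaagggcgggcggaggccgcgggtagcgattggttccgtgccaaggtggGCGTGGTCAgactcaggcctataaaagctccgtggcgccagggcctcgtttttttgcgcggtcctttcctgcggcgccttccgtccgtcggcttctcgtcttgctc
A match is a description of the letters and was not tested as a binding site.

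*Nqo1* (ENSMUSG00000003849, chromosome 8, 107388225 to 107403206), a quinone reductase, was at 13.2, 18, 21.2 and 21.3 CPM in LacZ CTRL. It was at 35, 62.8, 83 and 82.4 CPM with IL-1β, above every CTRL library (1.85, SE 0.26, adjusted p = 0.000957 by edgeR), and at 16.3, 27.4, 23.9 and 19.8 CPM with TNFα, which overlapped with CTRL (0.25, SE 0.19, adjusted p = 0.396 by edgeR). In iCre cells it was at 32.3, 45.1, 45.5 and 70.4 CPM with IL-1β and 32.9, 118, 115 and 132 CPM with TNFα, from 17.7, 29.9, 32.3 and 37.3 CPM in CTRL. Replicate 1 was the lowest library in each of these 6 groups, and in iCre TNFα it was far below the other 3. The iCre libraries of the 2 cytokines overlapped, and the difference of IL-1β against TNFα there was −1.04 (adjusted p = 0.215 by edgeR, 0.00134 with the block, and 0.0119 without iCre TNFα replicate 1).

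*Nqo1* rose with TNFα in iCre cells (1.80, SE 0.39, adjusted p = 0.00711 by edgeR). With IL-1β the log2 fold change there was 0.74 (SE 0.26, adjusted p = 0.0847 by edgeR), and it was called with the block. With TNFα all 4 iCre libraries were above all 4 LacZ libraries (2.20, SE 0.37, adjusted p = 0.00199 by edgeR). The TNFα response was larger in iCre cells (interaction 1.54, SE 0.47, adjusted p = 0.0352 by edgeR, and 0.00109 with the block). This call was lost when any 1 of 11 of the 16 libraries was left out (adjusted p of 0.0514 to 0.0779), the exceptions being LacZ CTRL replicates 1 and 2, LacZ TNFα replicate 2, iCre CTRL replicate 4 and iCre TNFα replicate 1. For IL-1β the interaction was −1.12 (SE 0.40, adjusted p = 0.115 by edgeR, and 4.59e-05 with the block), and it was called without LacZ IL-1β replicate 1 or iCre IL-1β replicate 4 (adjusted p = 0.0391 and 0.044 by edgeR).

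*Hmox1* (ENSMUSG00000005413, chromosome 8, 75093621 to 75100589), heme oxygenase 1, was at 103, 180, 116 and 119 CPM in LacZ CTRL, at 181, 298, 300 and 393 CPM with IL-1β and at 97.9, 149, 107 and 165 CPM with TNFα. IL-1β lay above every CTRL library (1.19, SE 0.23, adjusted p = 0.00485 by edgeR) and TNFα among them (0.01, SE 0.20, adjusted p = 0.998 by edgeR). In iCre cells it was at 165, 321, 163 and 194 CPM in CTRL, at 384, 399, 291 and 465 CPM with IL-1β and at 299, 576, 434 and 724 CPM with TNFα. Both cytokine groups rose in all 4 pairs, by 0.89 (SE 0.23, adjusted p = 0.0233 by edgeR) and 1.30 (SE 0.30, adjusted p = 0.00895 by edgeR) on the log2 scale. The first of these calls was lost without any 1 of iCre CTRL replicates 1, 3 and 4 and iCre IL-1β replicates 1 and 4 (adjusted p up to 0.0756), and after the GC correction (0.71, adjusted p = 0.0845).

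With TNFα *Hmox1* was 3.97-fold higher in iCre than in LacZ cells (log2 fold change 1.99, SE 0.27, adjusted p = 0.000716 by edgeR), with no overlap. The TNFα responses differed by 1.29 (interaction, SE 0.39, adjusted p = 0.0344 by edgeR, and 0.00033 with the block), a call that was lost when any 1 of 8 of the 16 libraries was left out (adjusted p of 0.0596 to 0.0805): LacZ CTRL replicate 2, LacZ TNFα replicates 1 and 3, iCre CTRL replicates 1, 3 and 4, and iCre TNFα replicates 2 and 4. After the GC correction it was 1.09 and not called (adjusted p = 0.0839), and it was called with the block and the GC correction together. With bFGF *Hmox1* fell in LacZ cells to 83.8 ± 8.67 CPM (SD, n = 4), below every CTRL library (−0.60, SE 0.16, adjusted p = 0.0407 by edgeR). Leaving out LacZ CTRL replicate 3 or 4 or LacZ bFGF replicate 1, 3 or 4 ended that call (adjusted p up to 0.115). In iCre cells *Hmox1* went from 211 ± 74.7 to 120 ± 32.8 CPM (SD, n = 4) with bFGF, with no overlap, and edgeR did not call this.

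*Gclm* (ENSMUSG00000028124, chromosome 3, 122245557 to 122270732), the modifier subunit of the enzyme that limits glutathione synthesis, was at 50.8, 58.5, 50.1 and 47.3 CPM in LacZ CTRL. With IL-1β it was at 112, 147, 164 and 177 CPM in LacZ cells, well above CTRL (1.55, SE 0.13, adjusted p = 5.04e-05 by edgeR), and at 73.3, 69, 66.2 and 97.3 CPM in iCre cells (0.36, SE 0.14, adjusted p = 0.121 by edgeR, called with the block). The IL-1β response was smaller in iCre cells (interaction −1.20, SE 0.20, adjusted p = 0.0014 by edgeR), and this was called without any 1 library and with the block and GC correction together (adjusted p = 0.0011). With TNFα the LacZ libraries held 66.1, 76.2, 57.3 and 70.8 CPM of *Gclm* and the iCre libraries 62.4, 117, 108 and 157 CPM. There replicate 1 overlapped with the LacZ libraries and the other 3 lay above them (0.73, SE 0.23, adjusted p = 0.0372 by edgeR). That call was lost without any 1 of 7 of the 8 libraries, all but iCre TNFα replicate 1 (adjusted p up to 0.119).

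With TGFβ *Gclm* was at 65.1 ± 6.97 CPM (SD, n = 4) in LacZ cells (0.35, SE 0.10, adjusted p = 0.0191 by edgeR) and 47.5 ± 4.19 CPM in iCre cells (−0.33, SE 0.11, adjusted p = 0.037 by edgeR), and the interaction was −0.71 (SE 0.15, adjusted p = 0.011 by edgeR). After the GC correction the iCre response was −0.07, the difference between viruses went from −0.48 to −0.13, the interaction went to −0.40, and none of the 3 was called. *Gclm* has a GC content of 42.1%. The rise in LacZ cells was lost without LacZ CTRL replicate 4 (adjusted p = 0.0622), the fall in iCre cells without any 1 of iCre CTRL replicates 2, 3 and 4 and iCre TGFβ replicates 1, 2 and 3 (adjusted p up to 0.105), and the difference between viruses without LacZ TGFβ replicate 3 or 4 or iCre TGFβ replicate 3 (adjusted p up to 0.0653). With TNFα the rises were 0.39 in LacZ cells (adjusted p = 0.0187 by edgeR, up to 0.0582 without LacZ CTRL replicate 3 or 4 or LacZ TNFα replicate 4) and 0.91 in iCre cells (adjusted p = 0.0161 by edgeR, 0.0503 without iCre CTRL replicate 1). Exons of *Gclm* overlap with *Gm17494* on the opposite strand, which had 98 counts, and the pseudogene *Gm6061*, which had 191, beside 111706 for *Gclm*.

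*Txnrd1* (ENSMUSG00000020250, chromosome 10, 82833951 to 82897712), the cytosolic thioredoxin reductase, was the gene called in the most ligand comparisons. In LacZ cells it was at 100, 113, 98.7 and 96.1 CPM in CTRL, and every library with bFGF, TGFβ, IL-1β or TNFα was higher. The log2 fold changes were 0.49 (SE 0.10), 1.21 (SE 0.14), 1.17 (SE 0.09) and 0.84 (SE 0.09), with adjusted p = 0.0112, 6.85e-05, 2.32e-05 and 0.000169 by edgeR. In iCre cells it rose with TGFβ (0.91), IL-1β (0.67) and TNFα (1.27) but was not called with bFGF (0.26, adjusted p = 0.493 by edgeR). The calls with bFGF in LacZ cells and IL-1β in iCre cells were lost when replicate 1 was left out of both groups (adjusted p = 0.0684 and 0.0563). Its difference between the viruses was not called with any ligand, although that with IL-1β was without iCre IL-1β replicate 4 (−0.43, adjusted p = 0.0185 by edgeR). With TNFα it was 0.64 (SE 0.22, adjusted p = 0.0508 by edgeR, 0.0348 with the block, and 0.00131 without iCre TNFα replicate 1), with 163, 291, 280 and 391 CPM in iCre and 185, 201, 159 and 183 CPM in LacZ cells.

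**Figure D3:**
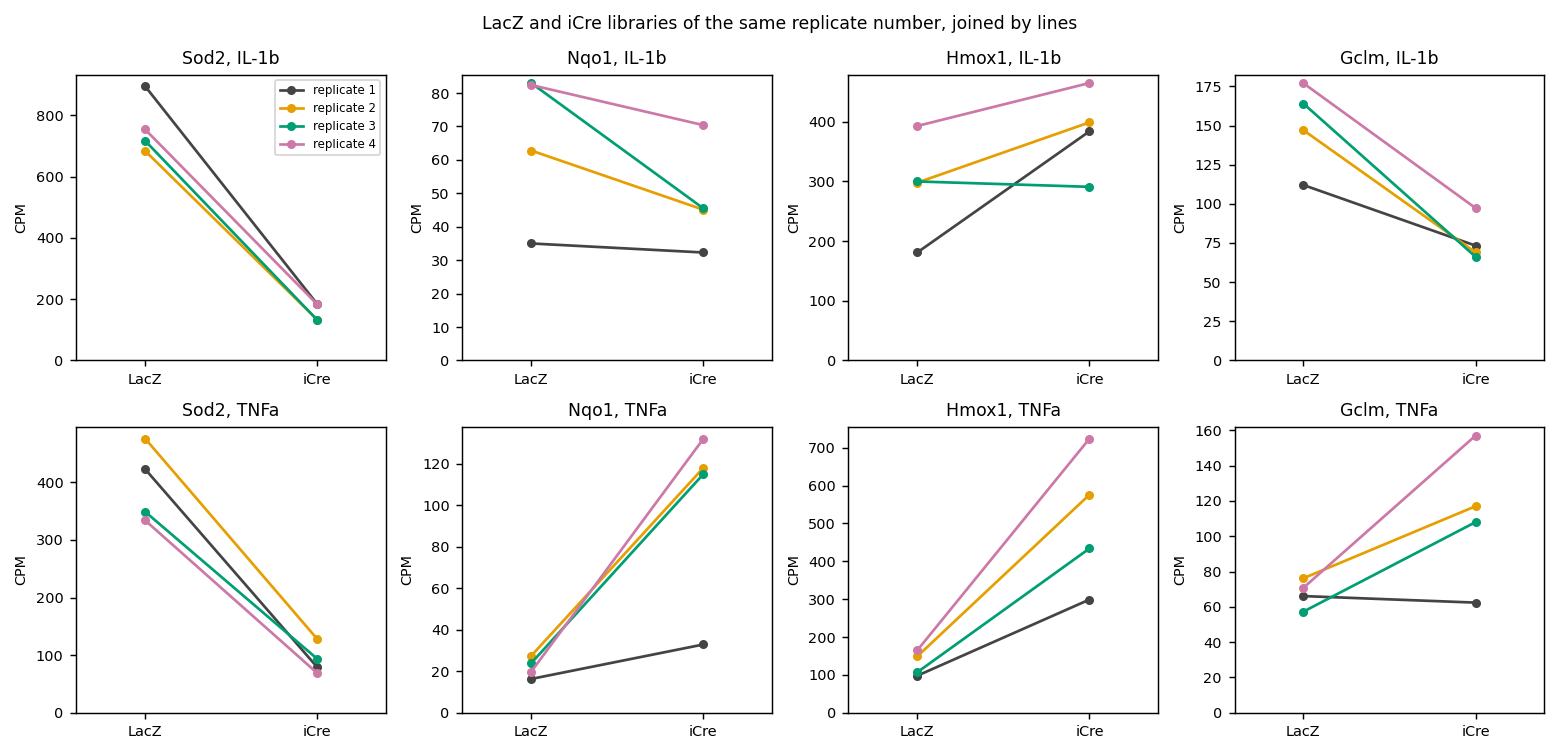
CPM of *Sod2*, *Nqo1*, *Hmox1* and *Gclm* in LacZ and iCre cells with IL-1β (top) or TNFα (bottom), with a line joining the libraries of the same replicate number and the y axis starting at 0. *Sod2* fell along all 4 lines with both cytokines, whereas with TNFα *Nqo1* and *Hmox1* rose along all 4 lines and *Gclm* along 3 of them.

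IL-1β and TNFα were compared directly, which uses no CTRL library. In LacZ cells 6 of the 10 genes were higher with IL-1β (*Sod2*, *Sod3*, *Cat*, *Hmox1*, *Nqo1* and *Gclm*) and *Cyba* was lower, beside 9.62% of all genes called. The largest differences were 1.59 for *Nqo1* (SE 0.26, adjusted p = 0.00318 by edgeR) and 1.18 for *Hmox1* (SE 0.23, adjusted p = 0.00935 by edgeR). For *Cat* (0.64, adjusted p = 0.0223 by edgeR) the call was lost without LacZ IL-1β replicate 3 or 4 or LacZ TNFα replicate 1, 3 or 4 (adjusted p up to 0.0703). In iCre cells none was called beside 2.65% of all genes, while 8 were with the replicate block (3 higher and 5 lower with IL-1β, beside 17.1% of all genes). By edgeR 7 of the 10 genes there had an unadjusted p under 0.05 (beside 16.6% of all genes), and DESeq2 called 1 (beside 8.08%). Without iCre TNFα replicate 1, 4 were called by edgeR, and without iCre TNFα replicate 2, 1 was.

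Between the viruses, none of the 10 genes was called in CTRL beside 0.0754% of all genes, nor with bFGF beside 0% of all genes. At an unadjusted p under 0.05 there were 5 of the 10 in CTRL (beside 14% of all genes) and 4 with bFGF (beside 10.3%), DESeq2 called 3 (beside 5.34%) and 1 (beside 1.91%), and the block called 6 (beside 14.5%) and 5 (beside 13.9%). With TGFβ 4 were called (2 higher, 2 lower in iCre) beside 8.37%, but none after the GC correction (beside 1.32%) and 7 with the block (beside 20.8%). With IL-1β 3 were called (1 higher, 2 lower) beside 16.1%, and 8 with the block (beside 29.5%). With TNFα 8 were called (5 higher, 3 lower) beside 27.3%. With the stricter filter the shares with TGFβ, IL-1β and TNFα were 20.1%, 30.8% and 47.4%, beside 4, 3 and 8 of the 10 genes. The fibroblast marker sum differed between the viruses without overlap with IL-1β and TNFα too, and its part was not tested. The ligand responses differed between viruses for no gene with bFGF (beside 0% of all genes, 1 of the 10 at an unadjusted p under 0.05 beside 3.03%, none by DESeq2), 1 with TGFβ (smaller in iCre cells, beside 4.51%, or 3.62% in that direction), 2 with IL-1β (both smaller, beside 7.71%, or 4.95% in that direction, and 6 with the block beside 16.9%) and 4 with TNFα (beside 16.1%).

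**Figure D4:**
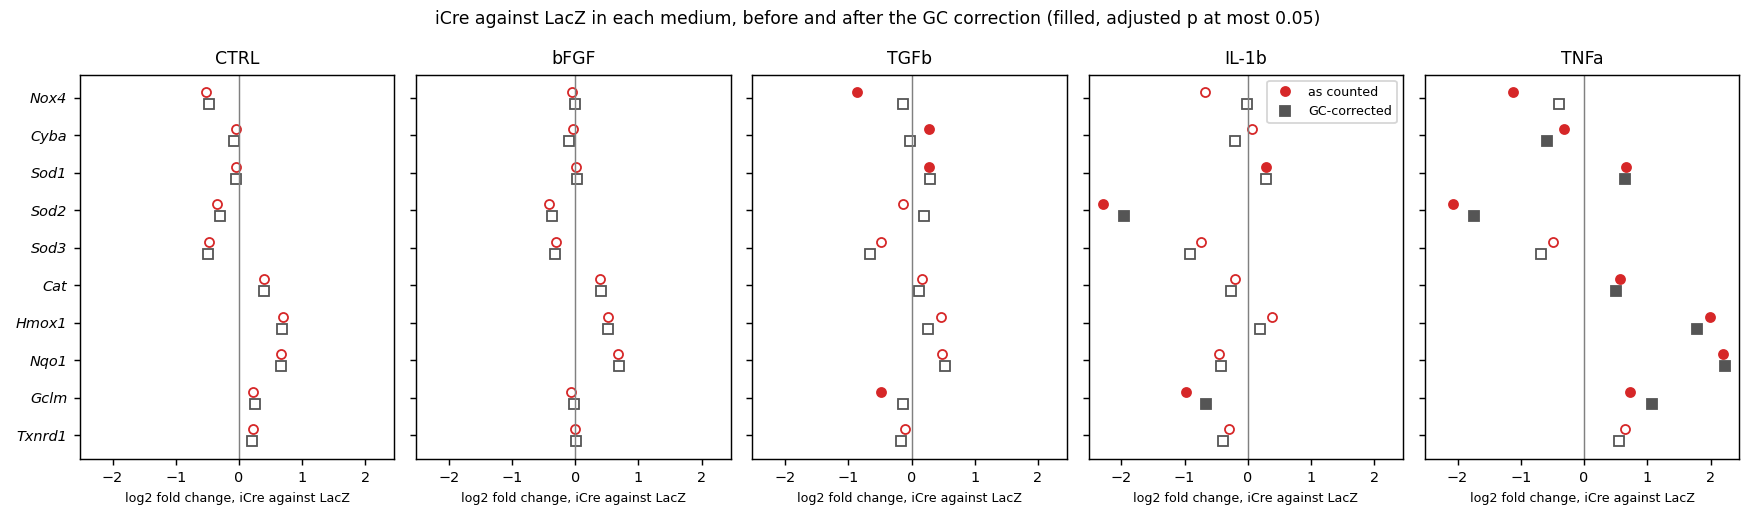
Log2 fold change of iCre against LacZ cells (x axis) for each gene in the 5 media, from the counts as deposited (red circles) and with the correction for GC content (grey squares), filled where adjusted p was at most 0.05. *Sod2* moved from −2.29 to −1.96 with IL-1β and stayed filled, whereas *Nox4* with TGFβ moved from −0.87 to −0.14.

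The iCre effect itself differed between the cytokines for 3 genes, in a comparison of 16 libraries without CTRL that was added once the data had been seen. The difference of TNFα against IL-1β was 2.61 for *Nqo1* (SE 0.51, adjusted p = 0.0202 by edgeR), 1.67 for *Gclm* (SE 0.30, adjusted p = 0.0131 by edgeR) and 1.56 for *Hmox1* (SE 0.37, adjusted p = 0.0474 by edgeR), beside 1.36% of all genes called and 0.627% called in this direction. For *Sod2* it was 0.16 (SE 0.26, adjusted p = 0.832 by edgeR). *Hmox1* lost its call without any 1 of 13 of the 16 libraries, all but LacZ IL-1β replicate 1, iCre IL-1β replicate 4 and iCre TNFα replicate 1 (adjusted p up to 0.11), and *Nqo1* without iCre IL-1β replicate 3 or iCre TNFα replicate 4 (adjusted p up to 0.0533). With the replicate block 6 of the 10 genes were called (5 higher, 1 lower, beside 10.7% of all genes).

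The 7 genes listed around NRF2 were *Nfe2l2*, which encodes NRF2 itself, *Nfe2l1*, *Keap1*, the repressor gene *Bach1* and the small MAF genes *Maff*, *Mafg* and *Mafk*. In LacZ cells all 7 rose with IL-1β (beside 20.7% of all genes called, 11.1% higher) and with TNFα (beside 21.3%), with median log2 fold changes of 1.01 and 0.71, beside −0.10 and −0.08 over all genes. *Maff* went from 17.2 CPM in CTRL to 44.3 CPM with IL-1β (1.38, SE 0.17, adjusted p = 0.000397 by edgeR) and 63.9 CPM with TNFα (1.90, SE 0.12, adjusted p = 8.69e-06 by edgeR). *Bach1* went from 65 CPM to 131 and 153 CPM (1.02 and 1.24, adjusted p = 0.000664 and 0.000495 by edgeR). In iCre cells 4 rose with IL-1β (beside 16.3% of all genes called, 9.38% higher) and 5 with TNFα (beside 27%), and none fell. *Bach1* was lower in iCre than in LacZ cells with IL-1β (−0.77, SE 0.13, adjusted p = 0.00239 by edgeR) and TNFα (−1.06, SE 0.15, adjusted p = 0.000911 by edgeR), and its responses differed between the viruses by −0.93 and −1.24 (interaction, adjusted p = 0.00519 and 0.000984 by edgeR).

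Of 20 other NRF2 targets, 15 rose and none fell with IL-1β in LacZ cells (median log2 fold change 0.77, beside 20.7% of all genes called and 11.1% higher). With TNFα 7 rose and 1 fell (median 0.11, beside 21.3%), and with TGFβ 7 rose and 9 fell (median 0.13, beside 36.9%). The medians over all genes were −0.10, −0.08 and −0.17. The cystine transporter gene *Slc7a11* rose with all 3, from 5.57 CPM in CTRL to 77.6 CPM with IL-1β (3.81, SE 0.37, adjusted p = 0.000112 by edgeR), 31.3 CPM with TNFα (2.49, SE 0.30, adjusted p = 0.000428 by edgeR) and 63.3 CPM with TGFβ (3.52, SE 0.19, adjusted p = 1.46e-06 by edgeR). *Fth1*, the ferritin heavy chain, rose with IL-1β from 1916 to 7823 CPM (2.04, SE 0.17, adjusted p = 4.74e-05 by edgeR). *Gstm1*, a glutathione transferase, fell with TGFβ from 271 to 20.4 CPM (−3.72, SE 0.16, adjusted p = 6.43e-07 by edgeR).

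Between the viruses 6 of these 20 targets were lower and none higher in iCre cells with IL-1β (median −0.23, beside 16.1% of all genes called and a median of 0.04), and 10 were higher and 1 lower with TNFα (median 0.59, beside 27.3% and 0.00). The lower ones with IL-1β included *Fth1* (−0.64, SE 0.18, adjusted p = 0.0333 by edgeR) and *Mgst1*, a microsomal glutathione transferase (−0.93, SE 0.09, adjusted p = 0.000181 by edgeR). The higher ones with TNFα included *Blvrb*, biliverdin reductase B (1.59, SE 0.26, adjusted p = 0.00188 by edgeR), and *Gss*, glutathione synthetase (1.16, SE 0.13, adjusted p = 0.000331 by edgeR). The difference between the 2 iCre effects was called for 4 of the 20, all higher with TNFα (beside 1.36% of all genes, or 0.627% in that direction), among them *Gclc*, the catalytic partner of *Gclm* (1.11, SE 0.17, adjusted p = 0.00812 by edgeR). The block and GC correction together gave 13 lower and 1 higher for IL-1β (beside 22.6% of all genes called), 8 higher and 2 lower for TNFα (beside 28.1%), and 13 called for the difference (beside 11.1%).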

How the data were processed

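RNA of 40 cultures (10 groups of 4) was analysed from the table of raw counts per gene that the authors deposited. The authors aligned reads to mm10 with STAR 2.6 and counted them with HTSeq 0.10.0. The strand setting and annotation release were not given in the sources used here, and the library kit is named differently in the labels and the methods. Genes with fewer than 10 counts in total were dropped, which left 25210. Groups of 4 were compared with edgeR 4.0.16 (TMM, quasi-likelihood test, Benjamini-Hochberg adjustment over all genes, adjusted p of at most 0.05), and interactions over 16 libraries. SEs were taken from the same fits. The genes, gene lists, motifs and tests were chosen with earlier results of these data known. Genes named from a list were among the called ones with the largest fold changes in a comparison, but not every such gene was named. The alternatives were DESeq2 1.42.0, RLE size factors, other filters, leaving out libraries, the replicate block, a GC correction and 1 fit of all libraries. Deviations from group means correlated at 0.546 on average between libraries of the same number (n = 180 pairs) and at −0.155 between others (n = 540). Every compared pair reached at least 0.286, so numbers were taken to pair the cultures in the replicate block and where pairs are named. The main edgeR tests did not use this pairing, and p-values given by edgeR without mention of the block are unpaired. The scripts were tested on simulated counts.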

Additional observations from a re-analysis of the deposited data

Results flagged for a closer look

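Some libraries lay apart from the other 3 of their group, by more of the group's range than Dixon's 95% critical value allows, in 5 of 100 groups of 4, and chance alone gives about 1 in 20. They were *Nox4* in iCre IL-1β replicate 2 (14.7 CPM, others 6.26 to 6.32), *Cyba* in LacZ CTRL replicate 2 (63.8 CPM, others 73.8 to 74.7) and in iCre TNFα replicate 4 (93.3 CPM, others 103 to 105), *Hmox1* in LacZ TGFβ replicate 4 (148 CPM, others 133 to 135), and *Txnrd1* in iCre IL-1β replicate 4 (237 CPM, others 170 to 174).

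The response to a ligand differed between LacZ and iCre cells by an interaction test (edgeR, adjusted p of at most 0.05) in 7 cases. For TGFβ this was *Gclm* (−0.71 on the log2 scale), for IL-1β *Sod2* (−1.94) and *Gclm* (−1.20), and for TNFα *Sod2* (−1.74), *Sod1* (0.70), *Nqo1* (1.54) and *Hmox1* (1.29). The iCre effect differed between TNFα and IL-1β for *Nqo1* (2.61), *Gclm* (1.67) and *Hmox1* (1.56), in a comparison chosen after seeing the data.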

How the results depend on the processing

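Among the 200 single-gene results, the direction and side of the threshold were kept in 175 with DESeq2, 197 with RLE, 191 with a stricter filter, 197 with no filter, 187 with the GC correction, 143 with the replicate block, 139 with the block and GC correction together, and 175 with 1 fit of all 40 libraries. The replicate block ended no call and added 57. *Cyba* with TGFβ between viruses reversed to −0.02 with the GC correction, with or without the block.

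Counts of the 10 genes called that moved by over 1.5 times follow, with the cause not tested. With the block they were 7 (bFGF in LacZ), 9 (IL-1β in LacZ), 4 (bFGF in iCre), 9 (IL-1β in iCre), 6, 5, 7 and 8 (viruses in CTRL, bFGF, TGFβ and IL-1β), 6 (IL-1β interaction), 8 (IL-1β against TNFα in iCre) and 6 (iCre effects compared), beside 27.3%, 33.5%, 16.7%, 33.8%, 14.5%, 13.9%, 20.8%, 29.5%, 16.9%, 17.1% and 10.7% of all genes in that order. With the block and GC correction they were 7, 10, 3, 7, 7 (viruses in CTRL), 5 (viruses in bFGF), 6 (viruses in IL-1β), 6, 8 and 6, beside 27.5%, 33.9%, 16.5%, 29.9%, 14.5%, 13.8%, 22.6%, 12.2%, 17.2% and 11.1%. With DESeq2 they were 5 (bFGF in LacZ), 2 (bFGF in iCre), 3 and 1 (viruses in CTRL and bFGF), 3 and 6 (TGFβ and IL-1β interactions), 1 (IL-1β against TNFα in iCre) and 6 (iCre effects compared), beside 18.5%, 7.93%, 5.34%, 1.91%, 8.68%, 11.7%, 8.08% and 5.42% of all genes. The stricter filter gave 2 and 4 for the TGFβ and IL-1β interactions (beside 10.1% and 15.1%). With the GC correction none was called between viruses with TGFβ or for the TGFβ interaction (beside 1.32% and 0.933%). The fit of all libraries gave 1 (bFGF in LacZ), 5 (IL-1β in iCre), 0 (TGFβ interaction), 6 (IL-1β against TNFα in iCre) and 6 (iCre effects compared), beside 16.1%, 19.4%, 5.91%, 8.25% and 3.01%.

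Without 1 library the counts ranged over 0 to 5, 5 to 7, 5 to 7 and 4 to 7 (bFGF, TGFβ, IL-1β and TNFα in LacZ), 0 to 1, 4 to 5, 1 to 4 and 6 to 8 (the same in iCre), 0 to 0, 0 to 0, 1 to 4, 2 to 3 and 6 to 9 (viruses in CTRL, bFGF, TGFβ, IL-1β and TNFα), 0 to 0, 1 to 1, 2 to 4 and 2 to 7 (interactions in the same order), 5 to 8 and 0 to 4 (IL-1β against TNFα in LacZ and iCre) and 1 to 6 (iCre effects compared). Leaving out replicate 1 of every group, whose libraries carry other library numbers than the rest, moved the count to 0 (bFGF in LacZ and in iCre), 1 (IL-1β in iCre), 1 (viruses in TGFβ), 4 (IL-1β interaction), 1 (IL-1β against TNFα in iCre) and 5 (iCre effects compared), beside 4.84%, 0%, 6.85%, 4.71%, 3.67%, 3.31% and 2.42% of all genes, and ended ligand or virus calls of *Cyba*, *Sod1*, *Cat*, *Hmox1*, *Gclm* and *Txnrd1*.

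In the blocked fits the spread was pooled across genes with prior degrees of freedom of up to 148, so blocked p-values rest on other genes more than the unblocked ones do. The precision of each value is that of 4 libraries a group, and the effect of depth was not tested.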
